A study of Homo sapiens with 12 samples.

Results

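The 90 genes described here encode nuclear subunits of the mitochondrial respiratory chain and of ATP synthase, among 58302 genes in the deposited table, of which 19817 are protein-coding. They were chosen by symbol and not by any measured value: protein-coding genes named NDUFA, NDUFB, NDUFC, NDUFS or NDUFV followed by a digit, SDHA to SDHD, and those whose symbols begin with UQCR, COX4 to COX8 or ATP5. By symbol, 39 belong to complex I, 4 to complex II, 9 to complex III, 17 to complex IV and 21 to complex V, which is ATP synthase. The names also take in NDUFA4, a protein now placed in complex IV, COX7A2L, which links complexes III and IV into supercomplexes, the ATP synthase inhibitor ATP5IF1, and the readthrough genes NDUFC2-KCTD14 and ATP5MF-PTCD1. They leave out NDUFAB1 of complex I and CYC1 of complex III.

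RNA sequencing was carried out on 2 established human lines of diffuse large B-cell lymphoma, all labelled WT. OCI-LY3 is assigned by the labels to the activated B-cell type (ABC-DLBCL) and SU-DHL6 to the germinal centre B-cell type (GCB-DLBCL). Each line was sequenced untreated and after selinexor, a drug that blocks the nuclear export receptor XPO1, in 3 libraries per group and 12 in all. The protocols give 300 and 100 nM and 24 and 48 h without assigning them to libraries, so dose and time may differ between the lines. The design text calls the replicates biological and does not describe separate cultures, so p-values measure the spread between these libraries. All cells grew in RPMI with serum, and untreated cells were kept as long as treated ones. Each lymphoma type is represented by 1 line, so a difference between the types cannot be told apart from any other difference between the lines.

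The respiratory chain passes electrons from NADH at complex I and from succinate at complex II to ubiquinone, then through complex III and cytochrome c to complex IV, which reduces oxygen. Complexes I, III and IV pump protons across the inner mitochondrial membrane, and ATP synthase uses the return flow to make ATP. Complexes I, III, IV and V also hold subunits made from mitochondrial DNA, so each needs transcripts from both genomes, whereas complex II is wholly nuclear. Diffuse large B-cell lymphomas are known to differ in how far they depend on oxidative phosphorylation.

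Library totals ranged from 14210200 to 16405842 counts. Values per library are CPM, counts scaled to TMM-adjusted library totals, and changes are log2 fold changes ± standard error (SE) from 1 edgeR quasi-likelihood fit over all 12 libraries. A gene was called at a Benjamini-Hochberg adjusted p under 0.05 over the 16474 genes that passed the filter on low counts. The words rose, fell, higher and lower are used only of called genes, except in counts of genes whose libraries did not overlap. Of the 90 members 82 were tested. B-cell markers summed to 1943 to 2012 CPM in untreated and 2899 to 3128 CPM in treated OCI-LY3, and to 3054 to 3666 and 2828 to 3030 CPM in SU-DHL6. T-cell markers summed to at most 0.65 CPM outside treated OCI-LY3, where they summed to 3.16 to 4.89 CPM with CD3D, CD3G and CD2 at 0. Summed myeloid markers were 29.3 to 32.0 CPM in untreated and 19.3 to 21.5 CPM in treated OCI-LY3, with CD14, LYZ and FCGR3A at 0, and at most 0.72 CPM in SU-DHL6. Summed fibroblast markers were 24.6 to 25.8 CPM in untreated and 28.4 to 38.9 CPM in treated OCI-LY3, with COL3A1 at 0, and at most 0.267 CPM in SU-DHL6. The activated B-cell type list summed to 2653 to 3755 CPM in OCI-LY3 and 452 to 834 CPM in SU-DHL6, and the germinal centre type list to 123.6 to 139.7 CPM in OCI-LY3 and 401 to 554 CPM in SU-DHL6. The summed marker levels thus followed the labels of the lines, although FUT8 of the activated B-cell list read 7.84 CPM (mean) in untreated OCI-LY3 and 35.1 CPM in untreated SU-DHL6. The part of markers of other cell types in the results was not tested.

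Under TMM scaling, the split of the subunit genes into rises and falls with selinexor differed between the 2 lines. In OCI-LY3, 15 of the 82 tested members rose and 8 fell, where 22.2% of all tested genes rose and 22.2% fell (44.4% called). In SU-DHL6, 4 rose and 30 fell, where 20.4% of all tested genes rose and 22.8% fell (43.2% called). The median member changed by 0.12 in OCI-LY3 and by -0.15 in SU-DHL6, beside medians over all genes of 0.00 in both. Single libraries moved these medians: that of SU-DHL6 was -0.29 without its untreated replicate 1, -0.265 without its treated replicate 1 and -0.094 without its treated replicate 3, and that of OCI-LY3 was 0.077 without its untreated replicate 1. The difference of the responses (SU-DHL6 minus OCI-LY3) was called below 0 for 28 members and above 0 for 2, where 19.9% and 17.0% of all tested genes were (36.9% called); the median difference was -0.31 over the members and -0.02 over all genes. Treated and untreated libraries did not overlap for 28 members higher and 15 lower in OCI-LY3, beside 28.8% and 28.7% of all genes, and for 6 higher and 27 lower in SU-DHL6, beside 25.5% and 25.6%. In bulk RNA, fewer cells with a transcript and less of it per cell cannot be told apart.

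The balance of rises and falls depended on how libraries were scaled, and the sizes below are relative to TMM scaling. When libraries were scaled by total counts instead, the median of all genes in SU-DHL6 shifted from 0.00 to 0.27 (in OCI-LY3 to -0.087). The split of the members became 20 higher and 18 lower in SU-DHL6, where 33.1% of all tested genes were higher and 14.4% lower. In OCI-LY3 it became 11 higher and 16 lower (17.8% and 26.6% of all genes). For the difference it became 12 above and 10 below 0 (29.7% and 11.0% of all genes). Against the shifted median the members' own median stood at -0.16 in SU-DHL6, beside -0.16 under TMM. With offsets for transcript GC content and length, 24 members were higher and 25 lower in SU-DHL6 (26.1% and 20.1% of all tested genes). In OCI-LY3 15 were higher and 21 lower (24.5% and 23.4%), and for the difference 20 lay above and 19 below 0 (20.2% and 17.9%). Under these offsets the members' median less that of all genes was -0.0735 in SU-DHL6 and 0.016 in OCI-LY3, and the median difference between the lines went from -0.31 to 0.073, or from -0.29 to 0.011 less that of all genes. Of the 30 falls in SU-DHL6, 18 were kept under total counts, 21 under the offsets and 16 under each of the 25 alternatives, or the 24 that tested NDUFA4L2, which the filter at 10 CPM removed. These 16 were NDUFA4L2, NDUFA9, NDUFB11, NDUFS7, NDUFS8, SDHA, UQCRC1, UQCRH, UQCRHL, COX5A, COX7A2L, COX8A, ATP5MC2, ATP5MC3, ATP5MG and ATP5MPL. In OCI-LY3, 8 rises (NDUFA2, NDUFA8, NDUFA12, NDUFB2, NDUFB5, SDHC, UQCRB and ATP5PD) and 4 falls (NDUFA4L2, NDUFS1, NDUFS7 and UQCRC1) were kept in the same way.

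Transcript GC content differed between the calls, and in OCI-LY3 the direction over the members was opposite to that over all genes. Principal transcripts of the 30 members that fell in SU-DHL6 had a median GC content of 52.5%, and those of the 48 not called 48.7%; the same medians were 52.5% for the 8 that fell and 45.7% for the 15 that rose in OCI-LY3. GC content weighted by counts over all genes was 50.45% to 51.42% in untreated and 49.64% to 50.05% in treated SU-DHL6 libraries. In OCI-LY3 it was 51.39% to 51.72% untreated and 51.43% to 52.02% treated. Over all tested genes the medians were 53.2% for those that fell and 45.1% for those that rose in SU-DHL6, and 48.3% and 51.8% in OCI-LY3. The Spearman correlation of GC content with change in OCI-LY3 was -0.265 over the members and 0.1 over all genes. In SU-DHL6 it was -0.272 and -0.211. The part of GC content in the calls was not tested beyond the offsets.

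**Figure D1:**
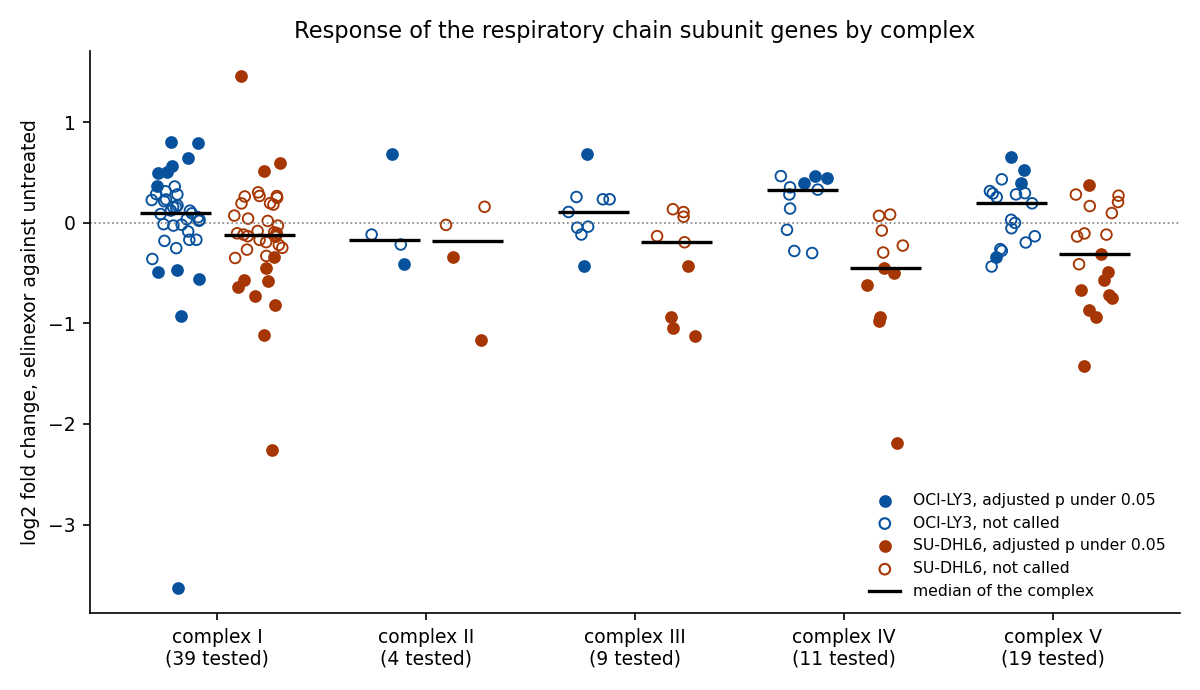
Log2 fold change with selinexor (y axis) of each tested subunit gene, by complex (x axis), in OCI-LY3 (blue) and SU-DHL6 (brown); filled points passed an adjusted p under 0.05 and black bars are medians. In complexes III, IV and V every called point of SU-DHL6 but 1 lies below 0 under TMM scaling, and in complex IV the 3 called points of OCI-LY3 lie above 0; under total counts or GC and length offsets these splits change.

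Of the 82 members, 7 were called in the same direction in both lines. NDUFA4L2, NDUFS1, NDUFS7, SDHB and UQCRC1 fell in both, which is 6.10% of the tested members, beside 8.83% of all tested genes. These 5 are 62.5% of the members' falls in OCI-LY3 and 16.7% of those in SU-DHL6, where the same shares over all tested genes were 39.8% and 38.7%. NDUFA12 and ATP5PD, 2.44% of the members, rose in both, beside 5.95% of all genes. NDUFB11, COX6B1 and ATP5MG, 3.66% of the members, rose in OCI-LY3 and fell in SU-DHL6, beside 4.43% of all genes, and 0 members did the reverse, beside 3.37%. The comparisons share no libraries but come from 1 fit, with common scaling, filter and estimates of the spread, so libraries of one line also moved calls of the other.

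The promoters of 5 of the genes called in the same direction in both lines are shown because they hold 1 or more of the motifs searched. Of the other genes so called, NDUFA12 has a promoter with 0 matches, and no promoter was found for NDUFA4L2. Genes of this family are known targets of the factors NRF1, GABP (an ETS protein) and YY1. Each is the RefSeq sequence on GRCh38.p14 from 250 bases before to 50 bases after the annotated start, 5′ to 3′ on the gene's strand. Capitals mark matches of the motifs CCGGAAGT (ETS), GCGCATGCG (NRF1) or AAGATGGCG (YY1) or of their reverse complements. The windows are NDUFS1 at chr2:206159395-206159694, SDHB at chr1:17053983-17054282, UQCRC1 at chr3:48609597-48609896 and ATP5PD at chr17:75046920-75047219, all on the minus strand, and NDUFS7 at chr19:1383657-1383956 on the plus strand.
NDUFS1: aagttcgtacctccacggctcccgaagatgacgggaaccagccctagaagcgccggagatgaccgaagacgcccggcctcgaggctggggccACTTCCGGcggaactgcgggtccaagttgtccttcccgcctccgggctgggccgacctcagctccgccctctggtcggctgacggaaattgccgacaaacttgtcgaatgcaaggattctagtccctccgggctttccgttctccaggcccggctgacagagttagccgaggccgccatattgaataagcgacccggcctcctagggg
NDUFS7: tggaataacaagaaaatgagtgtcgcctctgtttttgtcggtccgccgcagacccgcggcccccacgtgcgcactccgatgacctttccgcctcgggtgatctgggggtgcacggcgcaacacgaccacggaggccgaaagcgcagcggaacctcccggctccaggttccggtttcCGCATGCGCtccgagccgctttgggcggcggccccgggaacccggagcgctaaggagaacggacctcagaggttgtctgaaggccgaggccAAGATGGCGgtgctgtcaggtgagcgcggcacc
SDHB: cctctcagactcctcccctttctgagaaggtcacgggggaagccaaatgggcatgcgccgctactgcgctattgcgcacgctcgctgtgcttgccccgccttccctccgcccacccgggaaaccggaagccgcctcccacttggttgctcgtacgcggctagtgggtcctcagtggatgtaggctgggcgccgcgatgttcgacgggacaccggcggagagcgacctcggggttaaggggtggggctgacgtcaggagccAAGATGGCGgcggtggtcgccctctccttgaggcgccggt
UQCRC1: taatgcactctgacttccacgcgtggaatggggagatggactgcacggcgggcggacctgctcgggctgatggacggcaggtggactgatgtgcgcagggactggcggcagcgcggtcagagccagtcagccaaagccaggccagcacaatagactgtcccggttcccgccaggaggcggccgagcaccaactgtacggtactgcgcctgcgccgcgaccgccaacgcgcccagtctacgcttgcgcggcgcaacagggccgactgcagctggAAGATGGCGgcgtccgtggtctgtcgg
ATP5PD: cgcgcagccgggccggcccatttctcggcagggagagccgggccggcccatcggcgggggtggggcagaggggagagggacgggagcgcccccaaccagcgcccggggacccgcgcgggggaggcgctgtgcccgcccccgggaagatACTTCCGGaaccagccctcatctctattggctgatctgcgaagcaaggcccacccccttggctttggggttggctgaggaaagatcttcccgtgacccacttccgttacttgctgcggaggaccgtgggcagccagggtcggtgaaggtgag
The YY1 match of SDHB starts at base 261 of its window and that of UQCRC1 at base 274, both just after the annotated start. NDUFS7 holds a YY1 match at base 268 and an NRF1 match at base 177, and the ETS matches start at base 93 in NDUFS1 and 149 in ATP5PD. A promoter was found for 68 of the 90 members, and both strands were searched. The ETS motif occurred in 13.2% of the members' promoters and 6.2% of 15843 protein-coding promoters, the YY1 motif in 11.8% and 2.7%, and the NRF1 motif in 14.7% and 2.8%. Among genes with a promoter, 12 of 23 that fell in SU-DHL6, 1 of 4 that rose and 11 of 37 not called there held a motif. In OCI-LY3 it was 4 of 5 that fell, 3 of 11 that rose and 17 of 48 not called. Over all protein-coding promoters the share with a motif was 10.9%. These counts depend on the letters chosen, as a search with the NRF1 motif longer by 1 base and the YY1 motif by 2 showed. In SU-DHL6 7 of 23 that fell and 8 of 37 not called then held a motif, beside 8.9% of all promoters. Each of the 2 longer motifs occurred in 5.9% of the members' promoters, beside 1.8% (NRF1) and 1.4% (YY1) of all. A match describes the letters only, and the motif lengths were set after the members' calls were known.

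Complex I takes electrons from NADH and hands them to ubiquinone. Its 7 core subunits of the matrix arm carry the flavin and the iron-sulfur clusters, and the accessory subunits surround them. Among these 7, 3 fell and 0 rose in OCI-LY3, and 4 fell and 0 rose in SU-DHL6; under total counts 5 and 2 fell and under GC and length offsets 6 and 3, with 0 rises in each. Among the 29 accessory subunits, 7 rose and 1 fell in OCI-LY3 (24.1% and 3.45%, beside 22.2% and 22.2% of all tested genes). In SU-DHL6 3 rose and 4 fell (10.3% and 13.8%, beside 20.4% and 22.8% of all genes). In SU-DHL6 this balance became 10 higher and 2 lower under total counts and 13 higher and 4 lower under the offsets. Of all tested genes 33.1% were higher and 14.4% lower there under total counts, and 26.1% and 20.1% under the offsets. The shares of all genes given here and above also apply to the counts of complexes III, IV and V below.

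NDUFS7 (chr19:1383527-1395589, plus strand, GRCh38), which carries the last iron-sulfur cluster before ubiquinone, read 129, 148 and 159.9 CPM in untreated and 84.0, 76.2 and 68.8 CPM in treated OCI-LY3. In SU-DHL6 it read 105, 143 and 148 CPM untreated and 90.4, 70.2 and 78.1 CPM treated. The groups did not overlap in either line, and the changes were -0.93 ± 0.14 (SE, adjusted p = 0.000117) in OCI-LY3 and -0.73 ± 0.14 (SE, adjusted p = 0.000833) in SU-DHL6. Their difference of 0.20 ± 0.20 was not called (adjusted p = 0.477). NDUFS1 (chr2:206114817-206159603, minus strand), the largest iron-sulfur subunit of the NADH-oxidising end, went from 71.0, 78.3 and 67.4 CPM to 48.7, 55.6 and 50.5 CPM in OCI-LY3. In SU-DHL6 it went from 164, 146 and 152 CPM to 112, 117 and 109 CPM. Treated libraries were below untreated ones in both lines, with changes of -0.49 ± 0.094 (SE, adjusted p = 0.000781) and -0.45 ± 0.092 (SE, adjusted p = 0.00125), the second of which was not called under total counts.

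NDUFS8 (chr11:68030617-68036644, plus strand), the neighbour of NDUFS7 on the path to ubiquinone, stood at 80.6, 99.4 and 79.3 CPM in untreated and 42.2, 35.5 and 41.6 CPM in treated SU-DHL6. In OCI-LY3 it stood at 54.4, 49.8 and 55.8 CPM and 56.1, 43.2 and 43.1 CPM. The groups were well apart in SU-DHL6 and overlapped in OCI-LY3. NDUFS8 thus fell by 1.12 in SU-DHL6 (log2, SE 0.13, adjusted p = 1.13e-05), was not called in OCI-LY3 (-0.17), and differed between the lines by -0.95 ± 0.18 (SE, adjusted p = 0.00107), a difference not called under GC and length offsets. NDUFV2, an iron-sulfur subunit at the NADH end, fell in OCI-LY3 (-0.47 ± 0.14 SE, adjusted p = 0.0122) from 268, 283 and 262 to 174, 193 and 222 CPM. The NADH-binding subunit NDUFV1 had changes of -0.36 and -0.35 and NDUFS3 of -0.25 and -0.25, none of them called.

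All rises of complex I were in accessory subunits, which are 29 of its 39 tested members. NDUFA12 (chr12:94897055-95003770, minus strand), in the matrix arm, read 16.4, 18.7 and 17.1 CPM untreated and 33.6, 23.1 and 34.0 CPM treated in OCI-LY3. In SU-DHL6 it read 21.0, 23.7 and 21.8 CPM and 32.0, 35.4 and 27.7 CPM. All treated libraries lay above all untreated ones in each line, with rises of 0.80 ± 0.15 (SE, adjusted p = 0.000694) and 0.51 ± 0.15 (SE, adjusted p = 0.0122). NDUFA5 (chr7:123536997-123558255, minus strand), another matrix arm subunit, rose in SU-DHL6 from 22.5, 15.5 and 16.6 to 54.2, 54.5 and 41.3 CPM, by 1.46 ± 0.27 (SE, adjusted p = 0.00088). In OCI-LY3 its libraries overlapped at 30.6, 19.7 and 36.7 and 40.1, 39.3 and 22.3 CPM. The difference of 1.23 ± 0.37 (SE, adjusted p = 0.0216) was called, but not without OCI-LY3 untreated replicate 3, SU-DHL6 untreated replicate 2 or SU-DHL6 treated replicate 2, nor under the offsets. NDUFV3, at the NADH end, rose in SU-DHL6 from 17.9, 20.1 and 24.6 to 30.5, 36.2 and 27.7 CPM (0.59 ± 0.14 SE, adjusted p = 0.00357) and had a change of -0.028 in OCI-LY3.

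In OCI-LY3 the membrane arm subunits NDUFB2 and NDUFB5 rose by 0.80 ± 0.17 (SE, adjusted p = 0.00184) and 0.65 ± 0.10 (SE, adjusted p = 0.000149). NDUFB5 went from 48.6, 53.3 and 51.7 to 82.1, 76.2 and 82.4 CPM there, while SU-DHL6 read 37.9, 36.2 and 37.2 and 39.9, 31.8 and 33.4 CPM. NDUFB11, a membrane arm subunit encoded on the X chromosome (chrX:47142216-47145504, minus strand), moved in opposite directions. It rose in OCI-LY3 from 86.0, 91.4 and 87.7 to 115, 114 and 113 CPM (0.37 ± 0.13 SE, adjusted p = 0.0292) and fell in SU-DHL6 from 148, 193 and 195 to 137, 101 and 106 CPM (-0.64 ± 0.13 SE, adjusted p = 0.000946). The fall and the difference of -1.01 ± 0.18 (SE, adjusted p = 0.000566) held under each alternative tried, whereas the rise was not called when any 1 of the 6 OCI-LY3 libraries was left out. NDUFA6, NDUFA7 and NDUFA9 fell in SU-DHL6, with changes of -0.82 ± 0.23, -0.58 ± 0.21 and -0.57 ± 0.092; the libraries of NDUFA6 and NDUFA7 overlapped between the groups, and the fall of NDUFA7 (adjusted p = 0.0366) was lost under 14 of 25 alternatives, total counts and the offsets among them. NDUFB9 fell in OCI-LY3 with a change of -0.56 ± 0.20 and overlapping groups, a call (adjusted p = 0.0405) lost under 11 of 25 alternatives. NDUFA2, NDUFA8 and NDUFA11 rose there.

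NDUFA4L2 (chr12:57234903-57240715, minus strand), a paralog of NDUFA4 known as a target of the hypoxia-inducible factor, had the largest fall of the tested members but few reads. Its counts were 12, 37 and 34 in untreated and 1, 3 and 2 in treated OCI-LY3. In SU-DHL6 they were 68, 132 and 119 and 18, 32 and 32. Summed over the libraries and scaled, these are 12.9-fold and 4.81-fold lower levels, and the fits gave -3.63 ± 0.60 (SE, adjusted p = 0.000216) and -2.26 ± 0.37 (SE, adjusted p = 0.000241). NDUFA4 itself was not called in either line (0.12 and -0.17). NDUFA4L2 overlaps SHMT2 on the opposite strand, to an extent not measured here, and strand use in counting is not given in the sources used here.

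**Figure D2:**
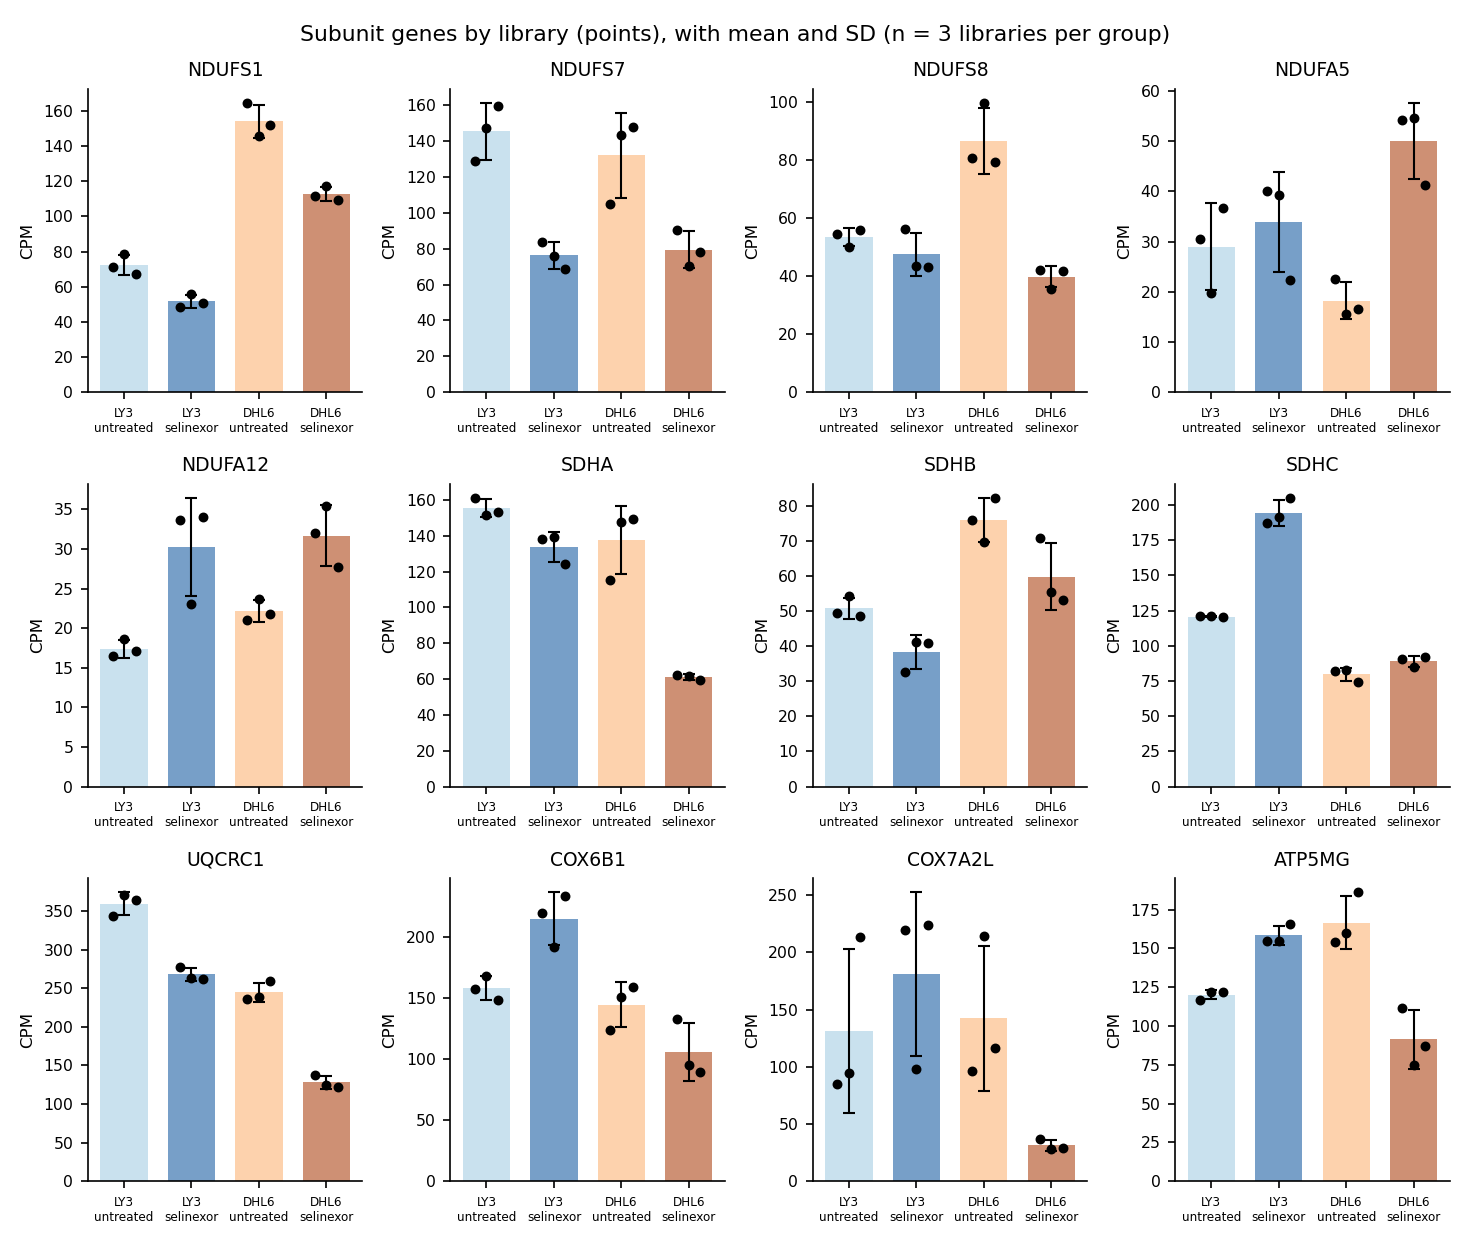
CPM (y axis) of 12 subunit genes in each of the 4 groups (x axis); points are libraries, bars are means and error bars are SD (n = 3). NDUFS7, NDUFS1 and UQCRC1 fall in both lines, SDHA falls in SU-DHL6 to between 59.6 and 62.5 CPM, SDHC rises in OCI-LY3, and COX7A2L varies more than 2-fold among the libraries of 3 groups.

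Complex II, succinate dehydrogenase, also works in the tricarboxylic acid cycle, and its 4 subunits did not move as a unit. SDHA (chr5:218241-256700, plus strand), the flavoprotein that oxidises succinate, read 116, 148 and 149.6 CPM in untreated and 62.5, 61.7 and 59.6 CPM in treated SU-DHL6. In OCI-LY3 it read 161, 152 and 153 CPM and 138, 139 and 124 CPM. The fall in SU-DHL6, -1.17 ± 0.10 (SE, adjusted p = 9.55e-07), held under each alternative, OCI-LY3 gave -0.22 (not called, adjusted p = 0.105), and the difference was -0.95 ± 0.15 (SE, adjusted p = 0.000192). SDHA has pseudogene rows in the table that held 18.0% of the reads summed over gene and pseudogenes. SDHB, the iron-sulfur subunit, fell in OCI-LY3 from 49.5, 54.1 and 48.6 to 32.7, 41.3 and 41.0 CPM (-0.40 ± 0.13 SE, adjusted p = 0.0214). Its fall in SU-DHL6, from 76.0, 69.6 and 82.1 to 70.8, 55.3 and 53.2 CPM (-0.34 ± 0.13 SE, adjusted p = 0.0431), came with overlapping groups and was lost under 18 of 25 alternatives.

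The membrane anchors behaved otherwise. SDHC (chr1:161314257-161375340, plus strand) rose in OCI-LY3 from 121, 121 and 120.3 to 187, 191 and 205 CPM, by 0.69 ± 0.083 (SE, adjusted p = 1.49e-05). In SU-DHL6 it stood at 82.2, 82.7 and 74.5 and 90.4, 84.7 and 92.2 CPM, a change of 0.16 that was not called. The treated OCI-LY3 libraries lay far above the untreated ones, and the difference of the lines was -0.53 ± 0.12 (SE, adjusted p = 0.00296), lost under total counts. SDHD had changes of -0.12 and -0.021, neither called, and pseudogenes held 16.3% of its summed reads. Of the 4 complex II assembly factors, SDHAF3 and SDHAF4 fell in OCI-LY3 (-0.59 ± 0.15 and -0.34 ± 0.13), and SDHAF4 and SDHAF1 fell in SU-DHL6 (-0.80 ± 0.14 and -0.44 ± 0.15).

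In complex III, which passes electrons from ubiquinol to cytochrome c, 1 of 9 members rose and 1 fell in OCI-LY3, and 4 fell and 0 rose in SU-DHL6. Under total counts SU-DHL6 had 3 higher and 3 lower, and under the offsets 3 higher and 5 lower. UQCRC1 (chr3:48599002-48610976, minus strand), a core protein on the matrix side, read 344, 371 and 365 CPM in untreated and 278, 264 and 263 CPM in treated OCI-LY3. In SU-DHL6 it read 237, 239 and 259 CPM and 138, 125 and 122 CPM. The groups were apart in both lines, and UQCRC1 fell with a change of -0.43 ± 0.084 (SE, adjusted p = 0.000936) and -0.93 ± 0.085 (SE, adjusted p = 1.11e-06), more in SU-DHL6 (difference -0.51 ± 0.12 SE, adjusted p = 0.00412, lost under total counts and under the offsets). The other core protein, UQCRC2, fell in SU-DHL6 (-0.43 ± 0.10 SE, adjusted p = 0.0033) and not in OCI-LY3 (0.23, adjusted p = 0.0742). The Rieske iron-sulfur protein UQCRFS1 was not called in either line (-0.048 and -0.19). UQCRB, a small subunit near the quinone site, rose in OCI-LY3 from 58.0, 58.1 and 56.6 to 97.8, 91.4 and 88.0 CPM (0.68 ± 0.13 SE, adjusted p = 0.000718) and had 0.060 in SU-DHL6.

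UQCRH (chr1:46303631-46316776, plus strand), the acidic hinge protein that helps cytochrome c bind, went from 344, 366 and 366 CPM to 211, 153 and 157 CPM in SU-DHL6, a change of -1.05 ± 0.12 (SE, adjusted p = 7.57e-06). In OCI-LY3 it read 176, 190.0 and 177 and 167, 169 and 193 CPM, a change of -0.038. Its near-copy UQCRHL (chr1:15807169-15809348, minus strand) fell in SU-DHL6 with a change of -1.12 ± 0.13 (SE, adjusted p = 1.13e-05) and had 0.11 in OCI-LY3. The 2 genes cannot be taken as separate measurements. Of the 50-base stretches of the UQCRH transcript 29.4% also occur in UQCRHL, and 7.6% of those of UQCRHL occur in UQCRH. The ratio of UQCRHL to UQCRH counts was 0.258 to 0.373 in every library. The handling of shared reads is not given in the sources used here. CYC1, the cytochrome c1 gene outside the name rule, fell in both lines, with changes of -0.37 ± 0.14 in OCI-LY3 and -0.94 ± 0.14 in SU-DHL6.

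Complex IV, cytochrome c oxidase, had called members in opposite directions in the lines under TMM scaling. Of 11 tested members, 3 rose and 0 fell in OCI-LY3, and 0 rose and 6 fell in SU-DHL6; the difference was called below 0 for 7 and above 0 for 0. Under total counts the counts were 1 and 2, 1 and 4, and 0 above and 3 below, and under GC and length offsets 1 and 3, 2 and 3, and 2 and 2. COX5A, a matrix-side subunit that joins early in assembly, fell in SU-DHL6 from 148, 196 and 194 to 103, 88.8 and 89.1 CPM (-0.94 ± 0.12 SE, adjusted p = 1.87e-05). In OCI-LY3 it read 249, 235 and 231 and 206, 179 and 203 CPM, with -0.28, not called (adjusted p = 0.0608). COX8A, the small membrane subunit of most tissues, fell in SU-DHL6 from 133, 192 and 187 to 101, 82.1 and 77.7 CPM (-0.98 ± 0.13 SE, adjusted p = 4.75e-05). Both falls held under each alternative, whereas the differences between the lines for COX5A and COX8A turned to 0.12 and 0.18 under GC and length offsets.

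COX6B1 (chr19:35648223-35658861, plus strand), on the face where cytochrome c docks, rose in OCI-LY3 from 157, 168 and 148 to 220.0, 192 and 234 CPM (0.45 ± 0.14 SE, adjusted p = 0.021). In SU-DHL6 it fell from 124, 151 and 159 to 133, 95.0 and 89.8 CPM (-0.45 ± 0.14 SE, adjusted p = 0.0208), with overlapping groups. The rise was lost under 7 of 25 alternatives and the fall under 10. The difference was -0.90 ± 0.20 (SE, adjusted p = 0.0033), lost under the offsets. COX4I1, the main form of the regulatory subunit IV, fell in SU-DHL6 (-0.61 ± 0.14 SE, adjusted p = 0.00291) and COX6A1 fell there (-0.49 ± 0.10 SE, adjusted p = 0.00153). Both falls were lost under the offsets, and that of COX6A1 also under total counts. Pseudogene rows held 11.7% of the summed reads of COX6A1 and its pseudogenes. COX5B and COX7C rose in OCI-LY3 by 0.39 ± 0.15 and 0.46 ± 0.14, the first lost under 14 of 25 alternatives. COX6C, COX7A2 and COX7B were not called in either line.

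COX7A2L (chr2:42333546-42425088, minus strand), the supercomplex factor, had the largest fall in SU-DHL6 after NDUFA4L2, from 96.6, 215 and 116 CPM to 36.4, 28.0 and 29.4 CPM (-2.19 ± 0.48 SE, adjusted p = 0.00574). All treated libraries lay below all untreated ones there. In OCI-LY3 it read 85.1, 94.3 and 214 CPM untreated and 220.0, 97.9 and 224 CPM treated, a change of 0.46 with an SE of 0.46. Its values differed more than 2-fold among libraries of the same group in 3 of the 4 groups, which was the case in any group for 6 of the 82 tested members, 1 of them NDUFA4L2 with few counts. The fall held under each alternative and the difference of -2.65 ± 0.67 (SE, adjusted p = 0.0128) under all but the threshold of 0.01.

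ATP synthase had 19 tested members, of which 3 rose and 1 fell in OCI-LY3 and 1 rose and 9 fell in SU-DHL6. Under total counts SU-DHL6 had 5 higher and 5 lower, and under the offsets 6 and 6. In the catalytic F1 head, ATP5F1B, the beta subunit that binds ATP, fell in OCI-LY3 (-0.34 ± 0.12 SE, adjusted p = 0.0376) and had -0.11 in SU-DHL6. The alpha subunit ATP5F1A fell in SU-DHL6 (-0.72 ± 0.23 SE, adjusted p = 0.0247), from 1418, 835 and 947 to 524, 588 and 830.3 CPM, a call lost under 7 of 25 alternatives. ATP5F1D, the delta subunit of the rotor stalk, fell in SU-DHL6 from 71.6, 83.3 and 99.8 to 48.2, 42.9 and 41.9 CPM (-0.94 ± 0.14 SE, adjusted p = 0.000101), and 1 more F1 gene, ATP5F1C, fell there (-0.49 ± 0.10). The fall of ATP5F1D was lost under the offsets and that of ATP5F1C under total counts. The stalk subunit ATP5PD (chr17:75038863-75046985, minus strand) rose in both lines, from 50.8, 54.4 and 51.7 to 75.6, 83.8 and 87.4 CPM in OCI-LY3 (0.65 ± 0.11 SE, adjusted p = 0.000234). In SU-DHL6 it went from 57.2, 62.8 and 55.6 to 86.7, 74.1 and 66.9 CPM (0.37 ± 0.11 SE, adjusted p = 0.012).

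Small membrane subunits of ATP synthase, some of which help its dimers form, were called in both directions. ATP5MG (chr11:118401154-118431496, plus strand), subunit g, rose in OCI-LY3 from 117, 122 and 122 to 155, 155 and 166 CPM (0.40 ± 0.13 SE, adjusted p = 0.0194). In SU-DHL6 it fell from 154, 159.7 and 186 to 112, 74.8 and 87.2 CPM (-0.87 ± 0.13 SE, adjusted p = 8.91e-05). The groups of each line did not overlap, and the fall and the difference of -1.27 ± 0.18 (SE, adjusted p = 9.98e-05) held under each alternative. The rise was lost under total counts and without OCI-LY3 untreated replicate 1 or treated replicate 3. ATP5MPL fell in SU-DHL6 with a change of -0.67 ± 0.12 (SE, adjusted p = 0.000353), and ATP5MD rose in OCI-LY3 by 0.52 ± 0.15 (SE, adjusted p = 0.0124). ATP5S, described as a coupling factor, fell in SU-DHL6 (-0.57 ± 0.11 SE, adjusted p = 0.000956), and ATP5PO, a stalk subunit, fell there with overlapping groups (-0.31 ± 0.12). The inhibitor ATP5IF1, which stops the enzyme from running backwards, was not called in either line: it read 20.2, 19.9 and 17.6 and 16.3, 20.9 and 20.5 CPM in OCI-LY3 and 119.8, 112 and 161 and 169, 144 and 139 CPM in SU-DHL6.

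The membrane rotor of ATP synthase is a ring of copies of subunit c, and 3 genes, ATP5MC1, ATP5MC2 and ATP5MC3, encode the same mature protein behind different import sequences. The last 63 coding bases of their principal GENCODE 29 transcripts, stop codon included, are shown because they let the 3 transcripts be told apart, with capitals at the 19 positions that differ among them.
ATP5MC1: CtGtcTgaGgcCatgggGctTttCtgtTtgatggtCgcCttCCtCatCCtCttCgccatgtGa
ATP5MC2: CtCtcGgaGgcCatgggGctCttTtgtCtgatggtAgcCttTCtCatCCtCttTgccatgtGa
ATP5MC3: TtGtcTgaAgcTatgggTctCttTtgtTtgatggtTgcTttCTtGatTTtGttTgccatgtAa
Over the last 228 coding bases, 53 positions differ, yet the 75 codons before the stop give 1 and the same amino acid sequence in all 3 genes. No 50-base stretch is shared between any pair of the transcripts.

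ATP5MC2 (chr12:53632726-53677408, minus strand) fell in SU-DHL6 from 197, 292 and 311 CPM to 115, 96.3 and 87.5 CPM, a change of -1.42 ± 0.20 (SE, adjusted p = 9.63e-05). ATP5MC3 (chr2:175176258-175184607, minus strand) fell there from 219, 293 and 265 to 173, 155 and 134 CPM, a change of -0.75 ± 0.12 (SE, adjusted p = 0.000148). ATP5MC1 (chr17:48892765-48895871, plus strand) read 51.7, 54.9 and 58.7 and 72.4, 53.2 and 59.9 CPM, a change of 0.17 that was not called. In OCI-LY3 the 3 changes were -0.13, 0.29 and -0.20, none called, and the difference between the lines was largest for ATP5MC2 (-1.72 ± 0.28 SE, adjusted p = 0.000403), where it held under each alternative. Per kb of transcript, ATP5MC2 made up 42.8% ± 3.45 (SD, n = 3) of the 3 genes in untreated and 28.4% ± 0.52 in treated SU-DHL6, and ATP5MC1 13.3% ± 1.65 and 25.9% ± 2.35. In OCI-LY3 the share of ATP5MC2 was 39.1% to 44.2% untreated and 46.1% to 57.5% treated. ATP5MC3 stayed between 41.0% and 48.1% in all 6 SU-DHL6 libraries. The share does not depend on the scaling of the libraries. For 3 libraries against 3, an exact two-sided permutation test cannot give a p below 0.1.

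**Figure D3:**
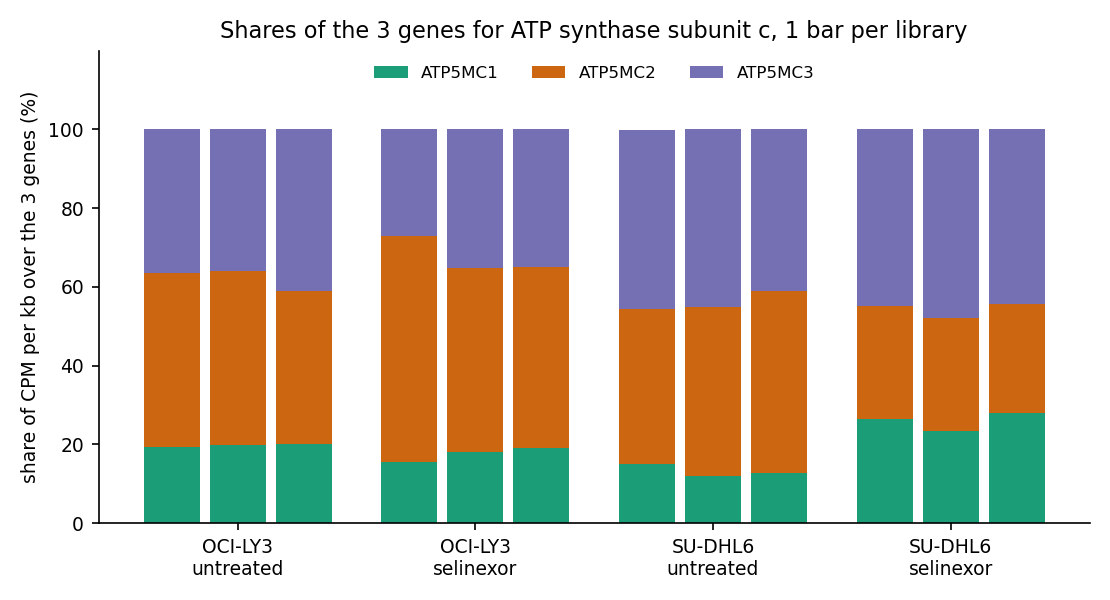
Share (y axis, %) of ATP5MC1, ATP5MC2 and ATP5MC3 in their summed CPM per kb in each library (1 bar per library, 3 per group on the x axis). ATP5MC1 makes up 23.3% to 27.9% in treated and 11.9% to 15.1% in untreated SU-DHL6 libraries, and ATP5MC2 27.8% to 28.7% and 39.3% to 46.2%.

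The responses of the members in the 2 lines are set side by side in the plot of one line against the other. Of the 30 members with a called difference, NDUFA5 and NDUFV3 lay above equal responses and 28 below. The 6 differences kept under each of 24 alternatives were those of NDUFB11, SDHA, UQCRH, UQCRHL, ATP5MC2 and ATP5MG, and all 6 were lower in SU-DHL6.

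**Figure D4:**
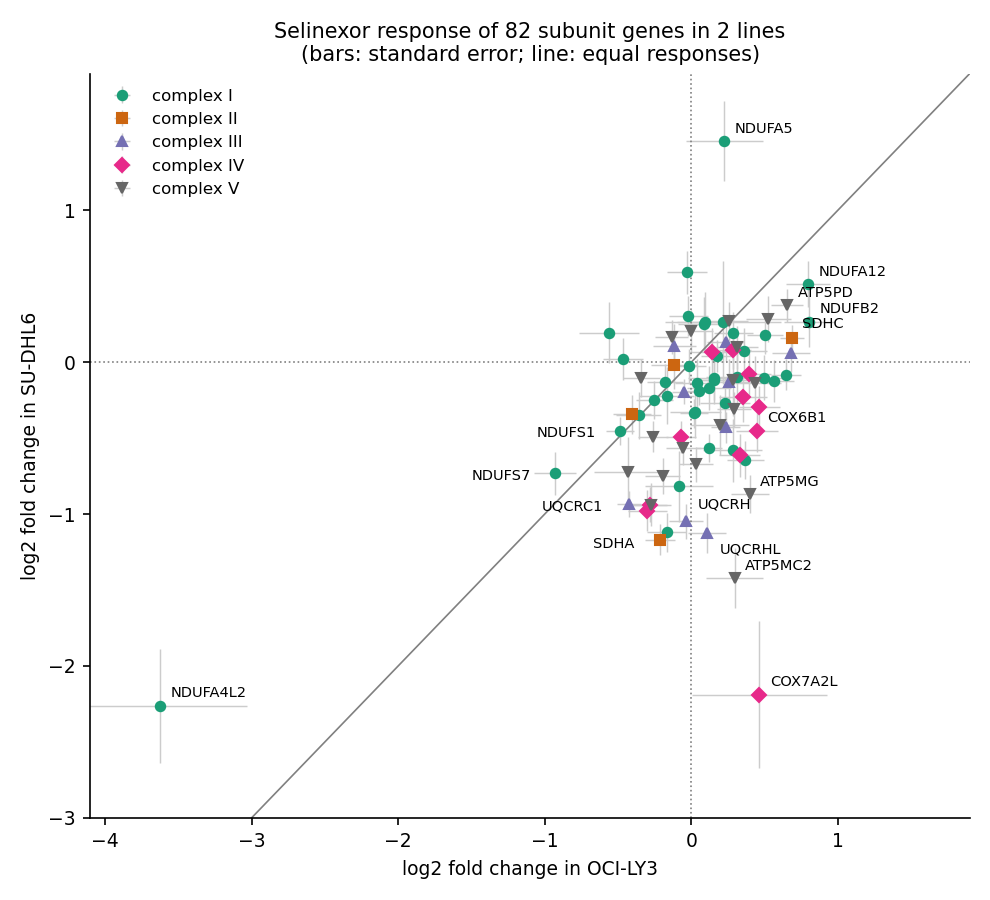
Log2 fold change with selinexor in OCI-LY3 (x axis) and SU-DHL6 (y axis) for the 82 tested members, by complex (colour and shape), with SE bars and a line of equal responses. SDHA, ATP5MC2, ATP5MG, COX7A2L, UQCRH and UQCRHL lie well below the line, NDUFS7 and NDUFS1 close to it, and NDUFA5 above it.

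Of the 82 tested members, 35 were called in neither line, 20 of them in complex I, 1 in complex II, 4 in complex III, 3 in complex IV and 7 in complex V. Their changes ran from -0.36 to 0.43 in OCI-LY3 and from -0.41 to 0.30 in SU-DHL6. Between the untreated lines 13 of these 35 were higher and 9 lower in OCI-LY3, beside 33.6% and 33.7% of all tested genes. Among them were the stalk subunit ATP5PB (-0.90 ± 0.14) and UQCRQ of complex III (0.44 ± 0.15).

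The untreated lines differed in 31.7% (higher) and 29.3% (lower in OCI-LY3) of the tested members, shares no larger than those of all tested genes. Between untreated OCI-LY3 and untreated SU-DHL6, 26 members were higher and 24 lower in OCI-LY3, where 33.6% and 33.7% of all tested genes were (67.3% called), and the median difference was 0.02. That median had no stable sign: it was -0.093 without untreated SU-DHL6 replicate 1, 0.10 without untreated SU-DHL6 replicate 2, 0.087 without untreated OCI-LY3 replicate 1, -0.048 under total counts and 0.13 under the GC and length offsets. The libraries of the lines did not overlap for 26 members higher and 26 lower, beside 35.6% and 35.4% of all genes. Complex I had 14 higher and 10 lower, complex IV 4 higher and 1 lower, and complex V 3 higher and 8 lower. All 24 lower and 17 of the 26 higher calls were kept under each of 24 alternatives, 23 of which tested NDUFA4L2. A called difference of at least 1 (log2) in either direction was found for 12 members.

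The largest was that of the inhibitor ATP5IF1 (chr1:28236109-28246906, plus strand), whose 20.2, 19.9 and 17.6 CPM in OCI-LY3 stood against 119.8, 112 and 161 CPM in SU-DHL6, a difference of -2.76 ± 0.15 (SE, adjusted p = 7.98e-10). NDUFV2 read 268, 283 and 262 CPM in OCI-LY3 and 45.8, 46.9 and 55.8 CPM in SU-DHL6, a difference of 2.46 ± 0.14 (SE, adjusted p = 1.60e-09). NDUFC1, a membrane arm subunit, read 61.6, 78.4 and 81.8 and 12.1, 14.4 and 17.8 CPM, a difference of 2.33 ± 0.16 (SE, adjusted p = 8.30e-09). No library of one line came near those of the other for these 3 genes. Rows of pseudogenes held 17.7% of the summed reads of NDUFV2 and its pseudogenes, and NDUFC1 overlaps MGARP on its own strand and NAA15 on the other. NDUFS1 was lower in OCI-LY3 (-1.09 ± 0.093) and so were NDUFB2 (-1.38 ± 0.17), NDUFB11 (-1.02 ± 0.13), UQCRB (-1.40 ± 0.13), UQCRHL (-1.19 ± 0.13), COX6C (-1.33 ± 0.13), ATP5S (-1.38 ± 0.12) and NDUFA4L2 (-1.85 ± 0.37). NDUFV3 was higher there (1.07 ± 0.14), as were SDHC (0.60 ± 0.084), SDHD (0.86 ± 0.16), UQCRFS1 (0.93 ± 0.083) and UQCRC1 (0.56 ± 0.084). Subunits of 1 complex differed in opposite directions: in complex II, SDHC and SDHD were higher and SDHB lower in OCI-LY3, while SDHA (0.18) was not called.

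**Figure D5:**
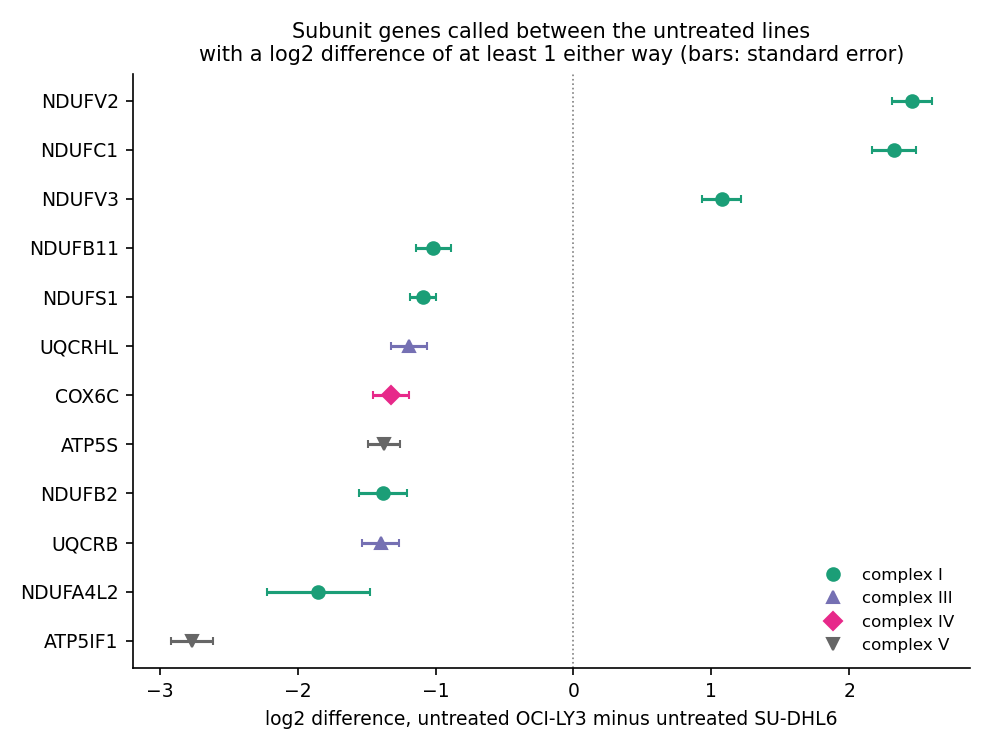
Log2 difference between untreated OCI-LY3 and untreated SU-DHL6 (x axis, with SE bars) for the 12 called members with a difference of at least 1 in either direction (y axis), by complex. ATP5IF1 lies lowest at -2.76 and NDUFV2 highest at 2.46.

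Levels were compared between genes as CPM per kb of the principal transcript. This was done because the lengths implied by the deposited FPKM exceeded the merged exons, with overlaps counted once, for 79 of 87 members. In untreated OCI-LY3 the highest were ATP5F1A at 549.7 ± 136 (SD, n = 3), COX8A at 434 ± 25.2, COX5A at 419 ± 16.6 and ATP5F1B at 394 ± 33.4 CPM per kb, and ATP5F1A and COX8A did not differ beyond their spread. In untreated SU-DHL6 UQCRH led at 594 ± 21.4 CPM per kb, followed by ATP5F1A at 549 ± 159, again within the spread. The median over tested members of complex IV was 210.4 CPM per kb in untreated OCI-LY3 and 256.5 in untreated SU-DHL6, above those of complex I (59.7 and 57.1) and complex II (54.5 and 47.0). Summed deposited FPKM of the members of a complex, which cannot be weighed between genes for the reason given, had log2 ratios of treated to untreated of 0.19 for complex I and -0.36 for complex IV in SU-DHL6 and of -0.19 for complex II in OCI-LY3. Summed CPM, which unlike the FPKM carries TMM scaling and is not divided by gene length, gave -0.19, -0.51 and 0.11 for the same ratios. As a share of all counts, with no TMM scaling, complex I took 0.254% ± 0.0166 (SD, n = 3) in untreated and 0.267% ± 0.0267 in treated SU-DHL6, and complex II 0.0401% ± 0.000925 and 0.0398% ± 0.00188 in OCI-LY3. The summed FPKM and CPM thus differed in sign for complex I in SU-DHL6 and complex II in OCI-LY3. The parts of scaling and of gene length in this were not tested. The differences between these shares were smaller than their SDs.

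Tissue-restricted forms were nearly silent. COX4I2, COX6A2 and COX7B2, forms known from lung, muscle and testis, had 0 counts in all 12 libraries, which allows up to 3 counts over a group. COX6B2 had 10, COX7A1 12 and COX8C 8 counts in all, and ATP5MGL 9. The readthrough gene ATP5MF-PTCD1 had 34. These 8 members did not pass the filter, whereas their common partners COX4I1, COX6A1, COX6B1, COX7A2, COX7B and COX8A all did.

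Genes that act on the subunits were counted by lists. For comparison, 22.2% of all tested genes rose and 22.2% fell in OCI-LY3, and 20.4% rose and 22.8% fell in SU-DHL6. Under total counts these shares were 17.8% and 26.6% in OCI-LY3 and 33.1% and 14.4% in SU-DHL6. Under the GC and length offsets they were 26.1% and 20.1% in SU-DHL6. Of 13 mitochondrially encoded subunits, 1 rose and 5 fell in OCI-LY3, with MT-ND2 at -0.53 ± 0.11, MT-ND4 at -0.51 ± 0.11 and MT-ND6, transcribed from the other strand of the mitochondrial genome, at 0.48 ± 0.13. In SU-DHL6, 0 rose and 0 fell under TMM, while 8 were higher and 0 lower under total counts and 4 and 0 under GC and length offsets. Of 6 complex III assembly factors 1 rose and 5 fell in OCI-LY3 (0 and 5 under total counts), and 2 rose and 3 fell in SU-DHL6 (2 and 0 under total counts). LYRM7 and BCS1L, which together insert the Rieske protein, moved in opposite directions: LYRM7 fell in OCI-LY3 (-1.06 ± 0.21 SE, adjusted p = 0.00112) and rose in SU-DHL6 (0.97 ± 0.20 SE, adjusted p = 0.00124), and BCS1L fell with a change of -0.71 ± 0.14 and rose by 0.46 ± 0.14. UQCC2 and UQCC3, needed for cytochrome b, fell in both lines, UQCC2 with -0.52 ± 0.12 and -0.49 ± 0.11 and UQCC3 with -0.38 ± 0.11 and -0.42 ± 0.11. The differences between the lines of LYRM7 and BCS1L were 2.02 ± 0.29 (SE, adjusted p = 0.000112) and 1.17 ± 0.20 (SE, adjusted p = 0.000471).

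Among 18 complex I assembly factors 4 rose and 4 fell in OCI-LY3 (22.2% each way, as over all tested genes). In SU-DHL6 3 rose and 5 fell (16.7% and 27.8%, beside 20.4% and 22.8% of all genes). NDUFAF2 fell in OCI-LY3 (-1.18 ± 0.14), NDUFAF1 rose in SU-DHL6 (1.14 ± 0.13) and DMAC2 fell there (-1.27 ± 0.16). FOXRED1 fell and NDUFAF8 rose in both lines, FOXRED1 with -0.66 ± 0.11 and -0.47 ± 0.11 and NDUFAF8 by 0.53 ± 0.13 and 0.38 ± 0.13. Under total counts the SU-DHL6 split was 10 and 3, beside 33.1% and 14.4% of all genes. Among 24 complex IV assembly factors 5 rose and 6 fell in OCI-LY3 (20.8% and 25.0%). In SU-DHL6 9 rose and 8 fell (37.5% and 33.3%), which became 12 and 1 under total counts. SURF1, which helps build the heme centres, rose in OCI-LY3 (0.49 ± 0.13) and fell in SU-DHL6 (-0.61 ± 0.13), and COX15, needed for heme a, did the same (0.45 ± 0.10 and -0.35 ± 0.10). COA3 rose in both lines (0.98 ± 0.15 and 0.66 ± 0.15), COX18, which inserts a mitochondrially made subunit into the membrane, fell in OCI-LY3 (-0.87 ± 0.15), and COA4 and COA5 rose in SU-DHL6 (0.71 ± 0.12 and 0.59 ± 0.10). COA7 did the reverse of SURF1 (-0.62 ± 0.10 and 0.45 ± 0.10). Of 5 ATP synthase assembly factors FMC1 rose in OCI-LY3 (0.64 ± 0.19) and TMEM242 fell in SU-DHL6 (-0.53 ± 0.19).

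Of 15 genes for electron carriers and coenzyme Q synthesis, 4 rose and 4 fell in OCI-LY3 (26.7% each way, beside 22.2% of all tested genes). In SU-DHL6 3 rose and 3 fell (20.0% each way, beside 20.4% and 22.8% of all genes). COQ2 and COQ3, enzymes of ubiquinone synthesis, fell in both lines, COQ2 with -1.26 ± 0.16 and -0.89 ± 0.16 and COQ3 with -0.80 ± 0.15 and -0.52 ± 0.14. PDSS1, which makes the isoprenoid tail, fell in OCI-LY3 (-1.49 ± 0.19), COQ10A rose there (1.30 ± 0.20), and cytochrome c (CYCS) fell in OCI-LY3 (-0.38 ± 0.15) and rose in SU-DHL6 (0.53 ± 0.14). Of 14 tested genes for transcription factors and coactivators of respiratory genes, 3 rose and 3 fell in OCI-LY3 (21.4% each way, near the share of all genes). In SU-DHL6 6 rose and 2 fell (42.9% and 14.3%). Under total counts the latter were 8 and 2, beside 33.1% and 14.4% of all genes. NRF1 fell in SU-DHL6 (-0.88 ± 0.10 SE, adjusted p = 6.99e-06), TFB1M fell there too (-1.12 ± 0.16) and TFB2M, which starts mitochondrial transcription, rose (0.92 ± 0.11). YY1 rose in OCI-LY3 (0.70 ± 0.12 SE, adjusted p = 0.000279). GABPB1, a partner of the ETS protein GABPA, fell in OCI-LY3 (-0.35 ± 0.089) and rose in SU-DHL6 (0.40 ± 0.089), and GABPB2 and the coactivator PPARGC1B rose in both, GABPB2 by 0.80 ± 0.12 and 0.42 ± 0.12 and PPARGC1B by 0.66 ± 0.13 and 0.72 ± 0.13.

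Some calls were lost when 1 library was left out, and the values without it follow (edgeR's quasi-likelihood test). Leaving out a library also makes its group smaller, and which of these led to a loss was not tested. In OCI-LY3, NDUFV2 was lost without treated replicate 1 (-0.38, adjusted p = 0.0689), SDHB without untreated replicate 2 or treated replicate 1 (-0.36 and -0.30, adjusted p = 0.0795 and 0.115), COX7C without untreated replicate 1 or treated replicate 3 (0.39 and 0.41, adjusted p = 0.0708 and 0.0541), and ATP5MG without the same replicates (0.38 and 0.37, adjusted p = 0.0644 and 0.0636). ATP5MD was lost there without untreated or treated replicate 3 (0.46 and 0.45, adjusted p = 0.0565 and 0.0532), and ATP5F1B without untreated replicate 1 or 3 or treated replicate 1 or 2 (adjusted p = 0.0806 to 0.15). In SU-DHL6, NDUFA12 was lost without treated replicate 2 (0.43, adjusted p = 0.0587), ATP5PD without treated replicate 1 (0.26, adjusted p = 0.0659), and ATP5F1A without untreated replicate 1 or treated replicate 1 or 2 (adjusted p = 0.0868 to 0.0989). NDUFA6 was lost there without untreated replicate 3 or treated replicate 2 or 3 (adjusted p = 0.0549 to 0.0773), and NDUFA7 without untreated or treated replicate 2 or 3 or treated OCI-LY3 replicate 2 (-0.43 to -0.58, adjusted p = 0.0519 to 0.146). In OCI-LY3, NDUFB9 was lost without any 1 of its untreated libraries, any 1 untreated SU-DHL6 library, or its treated replicate 2 or 3 (adjusted p = 0.0523 to 0.15), with a change of -0.37 without treated replicate 2. The difference for NDUFA5 took adjusted p values of 0.0508 to 0.0591 without the 3 libraries named above, the rise of NDUFB11 0.0553 to 0.087 without any 1 OCI-LY3 library, and the rise and the fall of COX6B1 were each lost without 4 single libraries of their line (adjusted p = 0.0574 to 0.0807 and 0.0593 to 0.112). Between the untreated lines, UQCRQ was lost without OCI-LY3 replicate 2 (0.36) or SU-DHL6 replicate 1 (0.29).

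Reads from copies and neighbours limit some values. Pseudogene rows, 159 in number, are named after 45 of the members, and adding their counts to the parent left the counts of calls at 15 and 8 in OCI-LY3 and at 4 and 30 in SU-DHL6. Another gene overlaps 58 members, for 45 of them on the opposite strand. Among the 29 tested members that overlap no other gene, 4 rose and 2 fell in OCI-LY3 (13.8% and 6.9%, beside 22.2% and 22.2% of all genes). In SU-DHL6 3 rose and 12 fell (10.3% and 41.4%, beside 20.4% and 22.8% of all genes). For the other members the part of reads from overlapping genes was not tested.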

How the data were processed

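Messenger RNA of 12 libraries was sequenced, and 1 table holds whole-number counts and FPKM per gene, both deposited by the authors, per the file headers. The sources used here do not give the aligner, the counter or the use of strand. GRCm38 and mm10, both mouse builds, stand in the submitters' processing notes, but the gene IDs are human and 87 of the 90 members have GENCODE 29 (GRCh38) coordinates. The deposited FPKM divide by lengths beyond the merged exons for 79 of 87 members. Levels between genes therefore use CPM per kb of the principal GENCODE 29 transcript.

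Counts were fitted with edgeR 4.0.16 in R 4.3.3 (filterByExpr, TMM factors, robust quasi-likelihood F test), with all 12 libraries and 1 coefficient per group, and Benjamini-Hochberg adjustment over 16474 genes. SE is the log2 fold change divided by the root of F. The fit was tested on simulated counts. Alternatives were other scalings, filters, thresholds and samples, the replicate block, DESeq2 1.42.0, limma-voom (limma 3.58.1), length offsets, added pseudogene counts and, chosen after the data were seen, offsets for GC content and length. Named members are the 3 called members per direction with the largest change in each contrast and complex, core subunits, isoform pairs and members that failed the filter; up to 2 called genes per direction with the smallest adjusted p are named from each list. Others (NDUFA2, NDUFA8, NDUFA9, NDUFA11, ATP5F1C, ATP5PO) were chosen after their values were seen. Members and lists were chosen with earlier results of these data known. Library totals of 14210200 to 16405842 counts set the precision, and no library was left out. The values of some genes are not reported here.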

Additional observations from a re-analysis of the deposited data

Results flagged for a closer look

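The test of the difference between the lines (SU-DHL6 minus OCI-LY3, log2, edgeR's quasi-likelihood test) was called for 30 members, and all such values are given here. In complex I the response of SU-DHL6 was lower for NDUFB11 (-1.01), NDUFS8 (-0.95), NDUFA7 (-0.86), NDUFB5 (-0.73), NDUFA9 (-0.69), NDUFA2 (-0.69) and NDUFA11 (-0.60), and higher for NDUFA5 (1.23) and NDUFV3 (0.62). In complex II it was lower for SDHA (-0.95) and SDHC (-0.53). In complex III it was lower for UQCRHL (-1.23), UQCRH (-1.01), UQCRC2 (-0.66), UQCRB (-0.62) and UQCRC1 (-0.51), and UQCRH and UQCRHL may share reads. In complex IV it was lower for COX7A2L (-2.65), COX4I1 (-0.94), COX6B1 (-0.90), COX7C (-0.76), COX8A (-0.68), COX5A (-0.66) and COX6A1 (-0.42). In complex V it was lower for ATP5MC2 (-1.72), ATP5MG (-1.27), ATP5MPL (-0.70), ATP5F1D (-0.66), ATP5PO (-0.60), ATP5MC3 (-0.55) and ATP5S (-0.51). COX6A1 was lost under 17 of 24 alternatives, NDUFA7 under 14, NDUFV3 under 6 and ATP5S under 5.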

How the results depend on the processing

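RLE factors, DESeq2, limma-voom, the removal of the filter and added pseudogene counts kept the count of members called higher and lower within 1.5 times in each of the 4 comparisons. Under total counts and under the GC and length offsets the shares of all tested genes shifted too, as given above. Under total counts, OCI-LY3 had 16 members lower, SU-DHL6 20 higher and 18 lower, and the difference 12 above and 10 below 0. Offsets for GC content and transcript length gave 21 lower in OCI-LY3, 24 higher in SU-DHL6 and 20 above 0 for the difference. Under these offsets SDHC (-0.27), COX5B (0.33) and COX6B1 (0.064) turned in SU-DHL6, as did the differences of COX5A (0.12), COX6A1 (0.31), COX6C (0.37), COX8A (0.18) and ATP5F1D (0.090). Length offsets gave 16 higher in SU-DHL6 (25.7% of all tested genes), 6 above 0 for the difference (19.8%) and 0.031 for the difference of COX8A. At an adjusted p under 0.01, fewer were called by construction: 8 higher and 4 lower in OCI-LY3, 2 higher in SU-DHL6, 0 above and 17 below 0 for the difference (edgeR; 2 above at the 0.05 threshold and 3 with DESeq2), and 17 higher between untreated lines. The filter at 10 CPM gave 7 higher in SU-DHL6 (27.0% of all tested genes) and 4 above 0 for the difference (22.6%). OCI-LY3 fitted alone gave 23 higher and 13 lower (26.3% and 27.3%). The causes of these shifts were not tested, except for the threshold.

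The replicate number did not pair the libraries: correlations of same-numbered deviations were -0.031, 0.0020 and -0.043 in OCI-LY3 and -0.164, -0.041 and 0.045 in SU-DHL6. With it as a replicate block, 16 and 8 members were called in OCI-LY3, 4 and 28 in SU-DHL6, 4 above and 25 below 0 for the difference, and 23 and 24 between untreated lines. With the block and length offsets, SU-DHL6 had 15 higher, the difference 7 above 0, and COX8A a difference of 0.032.

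Leaving out 1 library in turn gave 9 to 20 higher and 6 to 12 lower in OCI-LY3, 3 to 6 and 24 to 34 in SU-DHL6, 0 to 4 above and 22 to 39 below 0 for the difference, and 19 to 26 and 24 to 26 between untreated lines. OCI-LY3 had 9 higher without its untreated replicate 1 or treated replicate 3, and 20 higher and 12 lower without untreated SU-DHL6 replicate 1. The difference had 0 above without SU-DHL6 untreated or treated replicate 2, 1 without OCI-LY3 untreated replicate 2 or 3, and 4 without SU-DHL6 treated replicate 3.

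Summed CPM in place of summed FPKM (in brackets) gave log2 ratios for SU-DHL6 of -0.19 (0.19) in complex I, -0.40 (-0.091) in II, -0.51 (-0.32) in III, -0.44 (-0.0080) in V and -0.39 (-0.086) over all members. For OCI-LY3 they were 0.11 (-0.19) in complex II, -0.014 (-0.10) in III, 0.17 (-0.14) in IV and 0.0040 (-0.074) over all. Between untreated lines they were 0.29 (0.021) in II, -0.15 (-0.28) in III and -0.12 (-0.29) in V.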
